A study of Mus musculus with 4 samples.

Results

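The 10 genes described here carry out and control peptide presentation on major histocompatibility complex (MHC) class I: H2-K1, H2-D1, B2m, Tap1, Tap2, Tapbp, Psmb8, Psmb9, Nlrc5 and Erap1. They were taken by symbol from a table of 14159 genes, and all 10 were among its rows. RNA was sequenced from primary squamous cell carcinomas of mice, tumours of squamous epithelium such as skin or oral mucosa, that were not cultured. There were 4 libraries, 2 of the genotype labelled control and 2 of the genotype labelled KDM4A knockout. Kdm4a encodes a histone demethylase, and the labels describe its deletion as inducible. That treatment text stands beside the control libraries too, with strain, age, Cre driver and inducing agent not given in the sources used here. In its title the series names tumour immunity and resistance to PD1 blockade, and knockout against control is the comparison that its labels give.

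Class I molecules show short peptides from proteins made inside a cell to CD8 T cells. The proteasome cuts proteins, and the inducible subunits Psmb8 and Psmb9 replace constitutive ones in its catalytic core. Tap1 and Tap2 form the transporter that moves peptides into the endoplasmic reticulum, where Erap1 trims them and tapasin, the product of Tapbp, helps to load them. The loaded molecule is a heavy chain, such as the products of H2-K1 and H2-D1, bound to beta-2 microglobulin, the product of B2m. Nlrc5 encodes the coactivator of class I genes and is recruited to their promoters by a complex of RFX, CREB/ATF and NF-Y proteins. Interferons raise the expression of most of these genes, and loss of the pathway is a known way for tumours to escape T cells.

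Of the 10 members, 6 lie close together on chromosome 17 in the order Tapbp, H2-K1, Psmb9, Tap1, Psmb8, Tap2, between positions 33915899 and 34216321 of GRCm38 in the GENCODE M21 annotation. H2-D1 lies farther along that chromosome, from 35262730 to 35267499. The other members are B2m on chromosome 2 (122147686 to 122153083), Nlrc5 on chromosome 8 (94434356 to 94527272) and Erap1 on chromosome 13 (74639568 to 74693201). The submitters' processing notes name the older build mm9, so these positions are not those of the authors' gene models.

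The RefSeq promoter table for GRCm38.p6 held windows of 300 bases, from 250 before to 50 after the start site, for 8 of the 10 members. Tap2 and Nlrc5 were the members with no entry. The stretches shown here carry the letters that the class I promoters share, with each match in capitals. The motifs searched, on both strands, were AANNGAAA (interferon regulatory factors), TTCNNNGAA (STAT), TGACG (CREB/ATF), CCAAT (NF-Y; ATTGG on the opposite strand) and the NF-kB consensus. The letters were chosen with these sequences in view.
H2-K1 (chr17:34000325-34000468, minus strand): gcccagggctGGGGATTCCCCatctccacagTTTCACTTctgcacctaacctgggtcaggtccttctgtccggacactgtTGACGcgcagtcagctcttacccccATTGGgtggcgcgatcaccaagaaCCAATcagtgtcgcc
H2-D1 (chr17:35262913-35263055, plus strand): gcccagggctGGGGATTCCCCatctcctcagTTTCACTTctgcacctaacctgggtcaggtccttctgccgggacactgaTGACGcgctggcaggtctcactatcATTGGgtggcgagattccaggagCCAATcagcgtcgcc
B2m (chr2:122147540-122147736, plus strand): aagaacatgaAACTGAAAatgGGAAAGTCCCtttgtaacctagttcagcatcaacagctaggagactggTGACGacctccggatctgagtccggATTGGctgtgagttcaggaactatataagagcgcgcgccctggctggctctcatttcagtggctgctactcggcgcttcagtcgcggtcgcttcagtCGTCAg
Tap1 (chr17:34187324-34187484, plus strand): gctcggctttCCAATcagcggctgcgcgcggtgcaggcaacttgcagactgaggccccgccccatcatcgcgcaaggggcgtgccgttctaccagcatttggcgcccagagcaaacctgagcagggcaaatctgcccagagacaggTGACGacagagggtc
Erap1 (chr13:74639839-74639866, plus strand): ccaccttcacTTTCACTTtcggtcccgg

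In H2-K1, H2-D1 and B2m, TGACG was followed after exactly 20 bases by ATTGG, on the coding strand. That arrangement occurred on the coding strand in 19 of the 32851 promoter windows in the table (0.0578%), and on either strand in 31 (0.0944%). Both counts include the windows of these genes, which were in view when the letters were chosen. The interferon regulatory factor motif was in the windows of H2-K1, H2-D1, B2m and Erap1, and in 23.9% of all windows. The NF-kB consensus was in those of H2-K1, H2-D1 and B2m, and in 8.46% of all windows. TGACG alone was in 20.8% and CCAAT in 37.4% of them. The Tap1 window shares 275 bases with that of Psmb9, which is transcribed from the other strand, so the motifs shown for Tap1 count for both genes. Psmb8 held the STAT motif, as did 8.3% of windows, and none of the others. Tapbp held only CCAAT boxes. The RefSeq starts of Tapbp, Psmb8, Psmb9, H2-D1 and Erap1 used here lie more than 250 bases inside the GENCODE genes, that of Tapbp behind the overlapping gene Zbtb22. A match is a description of letters and not a binding site.

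The values were read as FPKM, fragments scaled to transcript length and to all mapped fragments of the library. On that reading levels can be compared between genes. The unit is not settled, however, and every ratio or order of levels between genes given below rests on it. The sums of the 4 columns lay between 592281 and 626719 FPKM, and the depth in reads is unknown. The tables do not tell the control libraries apart by number, so they are called a and b. The 12046 genes that reached 1 FPKM in at least 2 libraries were tested with limma on log2(FPKM + 1), knockout against control, and a gene is said to be called at a Benjamini-Hochberg adjusted p under 0.05 over all of them. On this scale the fold changes of weakly expressed genes come out too small. Nothing in the labels says that the libraries came from separate tumours, so the p-values speak only to how far these libraries scatter, and that scatter may be technical. Kdm4a itself measured 29.6 and 27.7 FPKM in the control libraries against 14.9 and 14.7 in those of the knockout, which left a ratio of 0.517. Its log2 fold change was -0.91 (SE 0.075, limma adjusted p = 0.000774). Krt5 and Krt14, the keratins of basal squamous cells, stood at means of 2336 and 2247 FPKM in control.

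Of the 10 members, 8 rose in knockout and none fell. Of all tested genes 63.9% were called, 30.1% as higher and 33.8% as lower. The counts of every list below are to be read beside these shares. The median log2 fold change of the members was 0.79, beside -0.027 over all tested genes. In each of the 10, both knockout libraries lay above both control libraries, an arrangement found in 40.4% of all tested genes, with the opposite one in 43.5%. All 10 passed the filter on low values, 9 with at least 1 FPKM in every library and Nlrc5 with at least 1 FPKM in 3 libraries. Nlrc5 was under 1 FPKM in control library b, so it needed a knockout library to pass.

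**Figure D1:**
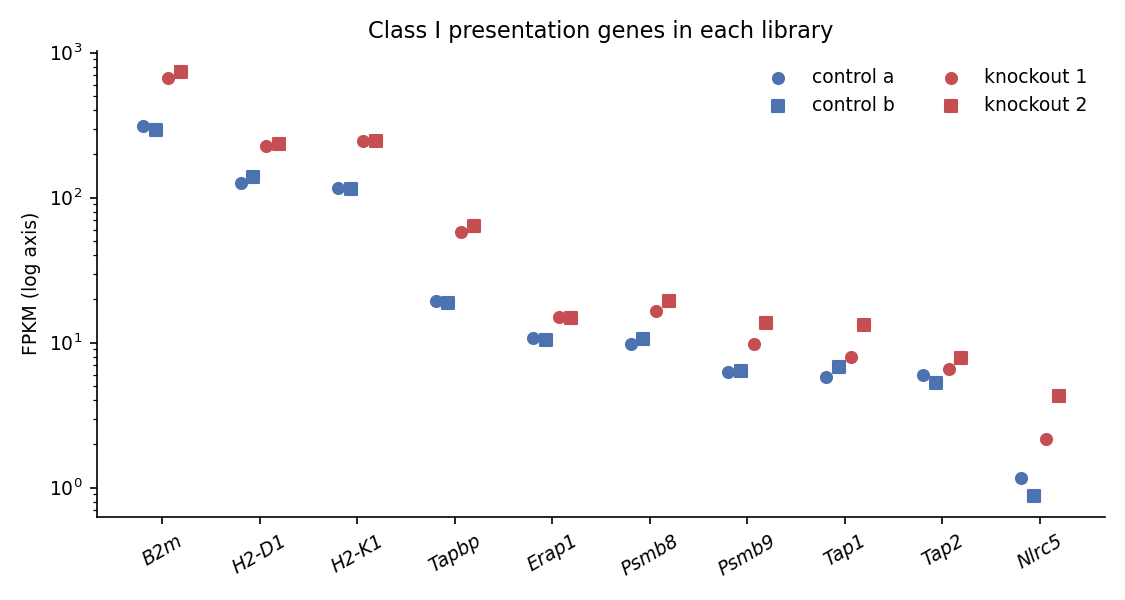
FPKM of the 10 members in each library on a log axis, ordered by the control mean; blue marks are control, red marks knockout, circles and squares the individual libraries. Levels run from about 1 FPKM for Nlrc5 to 737 FPKM for B2m in knockout library 2, and every red mark lies above both blue marks of its gene.

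The chains of the class I molecule were the members with the highest levels, and all 3 rose. H2-K1 encodes the heavy chain H-2K. It measured 117 and 114 FPKM in the control libraries against 246 and 246 in those of the knockout. The groups were far apart and the libraries within each nearly equal, and the fitted difference on the log2 scale was 1.08 (SE 0.056, 95% interval 0.94 to 1.23, limma adjusted p = 0.000385). H2-D1, which encodes the heavy chain H-2D, measured 127 and 138 FPKM in the control libraries against 228 and 235 in those of the knockout. Its groups did not overlap either, and its log2 fold change was 0.80 (SE 0.069, limma adjusted p = 0.00085). In control H2-D1 was the higher of the heavy chain genes, and in knockout H2-K1: the ratio of H2-K1 to H2-D1 was 0.919 and 0.827 in control and 1.08 and 1.05 in knockout. B2m, the light chain shared by all class I molecules, measured 310.2 and 295 FPKM in the control libraries against 672 and 737 in those of the knockout. Both knockout libraries were high, and the fitted difference on the log2 scale was 1.21 (SE 0.076, limma adjusted p = 0.000483). Per length, there were 1.27 and 1.17 B2m transcripts for each transcript of H2-K1 and H2-D1 together in control, and 1.42 and 1.53 in knockout. With 2 libraries a group, an exact permutation test of such a ratio cannot go below p = 0.333.

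Class I genes are near copies of each other, and reads can be shared between them. Of the windows of 50 bases along the longest coding transcript, 8.79% of H2-K1 and 14.3% of H2-D1 also occurred in transcripts of other genes in GENCODE M21, and the genes that shared most with either were class I genes. That share was 0 for B2m, Psmb8, Psmb9, Nlrc5 and Erap1, 0.861% for Tap1, 0.737% for Tap2 and 2% for Tapbp. How the authors' counting divided shared reads is not given, and the heavy chains also differ between mouse strains. The values of single heavy chain genes are uncertain for these reasons.

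Of the other class I and class I-like heavy chain genes listed, 14 of 24 were analysed and 12 tested. Of these 5 rose and 1 fell, with a median log2 fold change of 0.37. H2-M2, among the 5, was under 1 FPKM in both control libraries and passed the filter through the knockout libraries alone. A gene admitted in that way cannot be called lower, so its call adds little. H2-Q4, a non-classical gene of the Qa region, rose from 7.82 ± 0.308 FPKM to 19.9 ± 1.87 (mean ± SD of 2 libraries; on the log2 scale 1.25). H2-Q5 rose from 5.30 ± 2.32 to 30.4 ± 0.714 FPKM (log2 fold change 2.37) and H2-T24 from 3.48 ± 0.0968 to 6.24 ± 0.466 FPKM (0.69). Single values in this family carry the same uncertainty as those of H2-K1 and H2-D1. Mr1, whose product presents vitamin metabolites to MAIT cells, fell from 2.59 ± 0.168 to 1.43 ± 0.126 FPKM (log2 fold change -0.57, limma adjusted p = 0.00947), which no longer passed with control library b left out (0.0668). H2-M3, which presents formylated peptides and was chosen for its promoter after its values were seen, averaged 5.88 ± 0.646 FPKM across controls and 6.54 ± 1.29 across knockouts (limma adjusted p = 0.514).

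Among the genes of peptide transport and loading, tapasin changed most and the transporter was not called. Tapbp measured 19.3 and 18.9 FPKM in the control libraries against 57.9 and 63.7 in those of the knockout. Both knockout libraries were about 3 times the controls, with a ratio of means of 3.19 and a fitted 1.62 on the log2 scale (SE 0.076, 95% interval 1.42 to 1.82, limma adjusted p = 0.000332). Of all tested genes, 97.9% had a lower log2 fold change. Tapbp overlaps Zbtb22, a zinc finger gene, on the same strand in GENCODE M21, and reads of the overlap could go to either. Zbtb22, picked with its values already known, moved the other way. It measured 8.65 and 9.73 FPKM in the control libraries against 3.60 and 2.22 in those of the knockout (log2 fold change -1.40, limma adjusted p = 0.00306).

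Tap1 measured 5.79 and 6.77 FPKM in the control libraries against 8.03 and 13.2 in those of the knockout. The groups did not overlap, but the knockout libraries differed from each other by a ratio of 1.65. The fitted 0.64 on the log2 scale had a 95% interval of 0.036 to 1.25 and did not pass (SE 0.23, limma adjusted p = 0.0629). The call on Tap1 depended on the processing: it passed without knockout library 1 (log2 fold change 0.97, adjusted p = 0.00641), with quantile normalization (0.77, adjusted p = 0.0482), with robust eBayes (adjusted p = 0.0436), with short transcripts left out (0.0342) and with the trend over transcript length taken out (0.71, adjusted p = 0.0471). It was 0.31 without knockout library 2 (adjusted p = 0.0945) and 0.54 without control library a (0.18). Tap2 measured 6.0 and 5.29 FPKM in the control libraries against 6.58 and 7.84 in those of the knockout, the smallest change of the members. The fitted 0.30 on the log2 scale (SE 0.12, 95% interval -0.02 to 0.62, limma adjusted p = 0.0869) passed without knockout library 1 (0.41, adjusted p = 0.0374) and with quantile normalization (0.44, adjusted p = 0.0358). It was 0.19 without knockout library 2 (adjusted p = 0.199) and 0.22 without control library b (0.403). There were 3.33 and 2.79 Tapbp transcripts per length for each Tap1 transcript in control, and 7.21 and 4.82 in knockout. Against Tap2 the ratio of Tapbp was 3.21 and 3.57 in control and 8.8 and 8.13 in knockout.

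**Figure D2:**
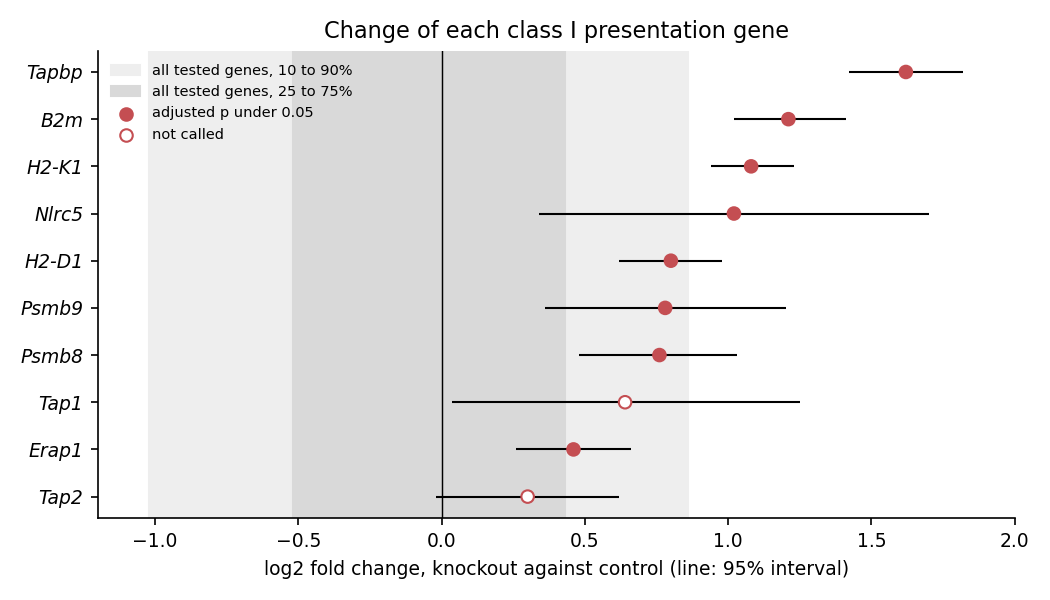
Log2 fold change of each member, knockout against control, with its 95% interval; filled marks were called and open marks were not, and the grey bands hold the middle of all tested genes. Tapbp (1.62), B2m (1.21) and H2-K1 (1.08) lie farthest to the right, and Tap1 and Tap2 are the open marks.

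The chaperones and folding enzymes that assemble class I molecules with tapasin, which serve many other proteins too, were listed with 8 members. Of these 3 rose and 1 fell, with a median log2 fold change of 0.15. Bcap31, an exit receptor of the endoplasmic reticulum, rose from 73.9 ± 0.992 to 98.2 ± 4.85 FPKM (log2 fold change 0.41, and 0.24 after the length trend was removed). Calr, which encodes calreticulin of the loading complex, stood at 348 ± 7.67 and 458 ± 32 FPKM (log2 fold change 0.39, limma adjusted p = 0.00835), which no longer passed with control library a left out (adjusted p = 0.0684) or after quantile normalization (0.0661). Hspa5, the chaperone BiP, fell from 1238 ± 66.9 to 609 ± 0.174 FPKM (log2 fold change -1.02). The count of 3 that rose was 1 without control library a, 2 without control library b or with quantile normalization, and 5 with the trend over length taken out. The tapasin relative Tapbpl, an editor of peptides picked with its values already known, rose from 5.29 ± 0.252 to 7.52 ± 0.376 FPKM, but did not pass with control library a (adjusted p = 0.0891) or b (0.139) left out.

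The inducible proteasome genes rose, and so did the constitutive subunits that they replace. Psmb8 (LMP7) measured 9.79 and 10.6 FPKM in the control libraries against 16.6 and 19.4 in those of the knockout, with no overlap (on the log2 scale 0.76, SE 0.11, limma adjusted p = 0.0032). Psmb9 (LMP2) measured 6.24 and 6.38 FPKM in the control libraries against 9.83 and 13.6 in those of the knockout (on the log2 scale 0.78, SE 0.16, limma adjusted p = 0.0109). The knockout libraries were both above the controls, knockout library 2 more so. Psmb9 and Tap1 overlap at their 5′ ends on opposite strands in GENCODE M21, and the counting may or may not have used strand. The other inducible parts listed were Psmb10 (MECL1) and the activator subunits Psme1 and Psme2, and all 3 rose, with a median log2 fold change of 0.87. Psmb10 rose from 8.79 ± 0.554 to 18.7 ± 0.656 FPKM, Psme2 from 20.6 ± 1.03 to 38.7 ± 4.07 and Psme1 from 38.7 ± 2.09 to 56 ± 3.41 FPKM (SD, n = 2).

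The constitutive catalytic subunits are Psmb5, Psmb6 and Psmb7, and all 3 rose, with a median log2 fold change of 0.83. Psmb5 rose from 54.2 ± 1.42 to 97.4 ± 5.41 FPKM (log2 fold change 0.83, limma adjusted p = 0.00078). Psmb6 rose from 116 ± 1.32 to 259.8 ± 7.53 FPKM (1.16, limma adjusted p = 0.000383) and Psmb7 from 197 ± 15.1 to 279 ± 3.26 FPKM (0.50, limma adjusted p = 0.00392). The balance between inducible and constitutive forms is given for each of the 3 pairs, and the pairs were not tested against each other. Psmb8 was at 18.4% and 19.2% of the level of Psmb5 in control and at 17.8% and 19.1% in knockout, and the groups overlapped (difference of log2 ratios -0.075, two-sided exact permutation p = 0.667). Psmb9 was at 5.34% and 5.55% of Psmb6 in control and at 3.71% and 5.35% in knockout (difference -0.37, exact permutation p = 0.333). On the log2(FPKM + 1) scale that ratio was lower in both knockout libraries than in either control library, while the plain percentages overlapped. Psmb10 was at 4.92% and 4.04% of Psmb7 in control and at 6.61% and 6.83% in knockout, higher in both knockout libraries (difference 0.51, exact permutation p = 0.333). The smallest p that this test allows here is 0.333.

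**Figure D3:**
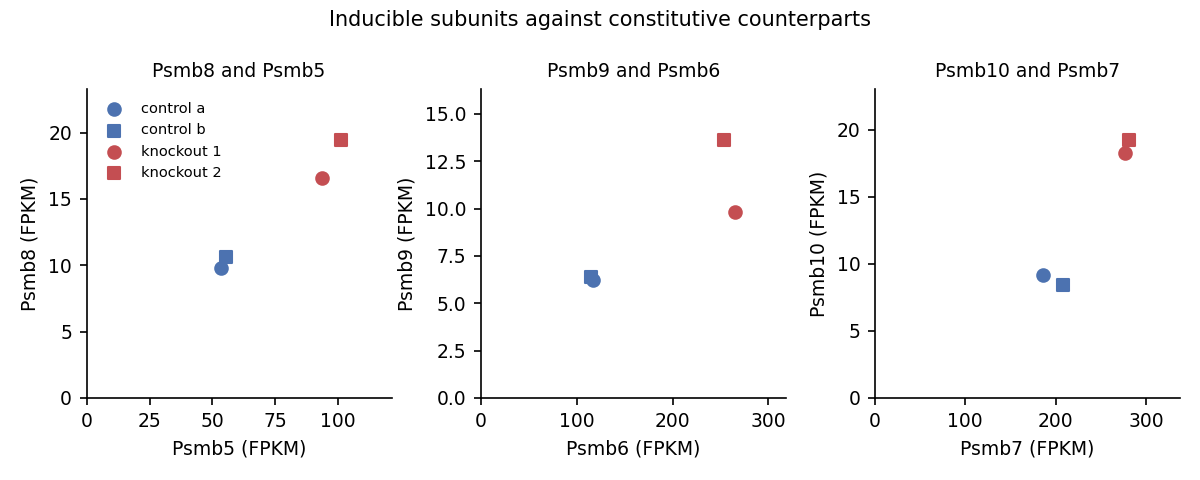
FPKM of each inducible catalytic subunit on the vertical axis against its constitutive counterpart on the horizontal axis, both from 0, with 1 mark a library. In every panel the red knockout marks are higher than the blue control marks on both axes, and only Psmb10 moved more than its counterpart, Psmb7.

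Erap1, the aminopeptidase that trims peptides in the endoplasmic reticulum, measured 10.7 and 10.5 FPKM in the control libraries against 15 and 14.8 in those of the knockout. The libraries of each group were close and the groups apart, and the difference on the log2 scale was 0.46 (SE 0.078, 95% interval 0.26 to 0.66, limma adjusted p = 0.00587). With control library a left out the adjusted p was 0.0585, and with b left out 0.0696, and the log2 fold change was 0.76 after the trend with transcript length was removed. Of the 7 other aminopeptidases and cytosolic peptidases listed, 2 rose and 3 fell, beside 30.1% of all tested genes called higher and 33.8% lower. Blmh, a cytosolic hydrolase, fell from 55 ± 1.57 to 37.8 ± 0.144 FPKM, and Lnpep, an endosomal aminopeptidase used in cross-presentation, fell from 24.4 ± 0.947 to 15.2 ± 0.54 FPKM. The change of Lnpep was -0.12 (limma adjusted p = 0.209) after the length trend was removed. Thop1, a cytosolic peptidase that destroys class I peptides, rose from 21.5 ± 0.599 to 30.8 ± 1.70 FPKM. Tpp2, which trims long peptides in the cytosol, rose by 0.32 and by 0.55 after the length trend was removed, but did not pass with control library a (adjusted p = 0.129) or b (0.0638) left out. Npepps, the third that fell, was at -0.40, and likewise did not pass with control library a (0.0727) or b (0.105) left out. With control library a left out 1 rose and 2 fell, and the counts were the same with b left out.

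Nlrc5 was the member with the lowest level. It measured 1.16 and 0.882 FPKM in the control libraries against 2.17 and 4.28 in those of the knockout. Both knockout libraries were above the controls, and knockout library 2 was 1.98 times library 1. The fitted 1.02 on the log2 scale (SE 0.26, 95% interval 0.34 to 1.7, limma adjusted p = 0.0224) moved with the pseudocount, to 1.5 at 0.1 and 0.44 at 5, and Nlrc5 is near 1 FPKM in control. After the trend with transcript length was removed it was 1.42. It was 0.65 without knockout library 2 and 1.39 without library 1, and the call was lost without control library b (adjusted p = 0.0637).

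The proteins that recruit the product of Nlrc5 to class I promoters did not move together. Of the RFX subunits, Rfx5 measured 5.96 and 6.07 FPKM in the control libraries against 1.84 and 2.48 in those of the knockout, so that it fell in both knockout libraries (log2 fold change -1.16, SE 0.14, limma adjusted p = 0.00189). Rfxank and Rfxap, the partners of Rfx5 and picked with their values already known, were higher in knockout. Rfxank stood at 1.76 ± 0.126 and 3.57 ± 0.709 FPKM (0.72, limma adjusted p = 0.01; 0.0525 without control library b) and Rfxap at 4.65 ± 0.381 and 6.73 ± 0.148 FPKM (0.45, limma adjusted p = 0.0147; 0.0707 without control library a and 0.15 without b). Of the NF-Y subunits, which bind CCAAT, Nfya fell from 51.4 ± 1.97 to 26.6 ± 4.01 FPKM (-0.93, limma adjusted p = 0.00222). Nfyb (-0.22) and Nfyc (0.17) were not called (limma adjusted p = 0.0584 and 0.283). Creb1, which binds the TGACG element, fell from 14.2 ± 0.55 to 8.36 ± 1.57 FPKM (-0.71), and its change after the length trend was removed was -0.28 (limma adjusted p = 0.128).

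Of the 16 regulators listed besides Nlrc5, 7 rose and 4 fell, with a median log2 fold change of 0.042. Ciita, among the 7, was under 1 FPKM in both control libraries and passed the filter through the knockout libraries alone. With control library a left out 5 rose, and with b left out 4. Irf1, which binds the interferon motif of class I promoters and was picked with its values already known, measured 12.4 and 10.9 FPKM in the control libraries against 34.6 and 55.2 in those of the knockout (1.83, limma adjusted p = 0.00222). Nfkb1, an NF-kB subunit, fell from 31.6 ± 0.261 to 15.4 ± 0.958 FPKM (-1.0, limma adjusted p = 0.000698). Of 9 interferon receptor, kinase and ligand genes listed, 8 were analysed and tested, and the ligand gene Ifng was not among them. Of the 8, 2 rose and 2 fell, beside 30.1% of all tested genes called higher and 33.8% lower. The ligand gene Ifnb1 rose from 2.71 ± 0.745 to 65.9 ± 9.9 FPKM and the kinase gene Jak1 from 33.3 ± 0.113 to 46.6 ± 0.752 FPKM. Jak2 (-0.71) and the receptor gene Ifnar1 (-0.47) fell, and neither call held without control library a (limma adjusted p = 0.0529 and 0.104) or b (0.0511 and 0.0794).

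**Figure D4:**
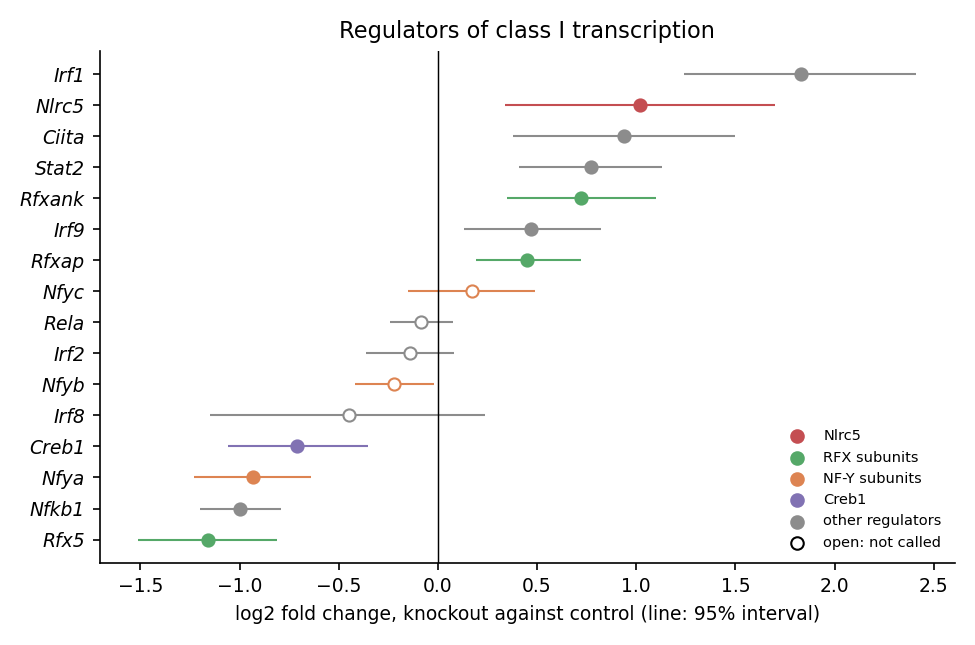
Log2 fold change of Nlrc5 and of other regulators listed, with 95% intervals; colours mark the RFX subunits, the NF-Y subunits and Creb1, and open marks were not called. Irf1 (1.83) lies farthest to the right and Rfx5 (-1.16) farthest to the left, with its partners Rfxank and Rfxap on the other side of 0.

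Genes around the members on chromosome 17 moved in either direction, apart from the class II genes. In the segments that reach 100 kb beyond Tapbp and Tap2 and beyond H2-D1, 41 other protein-coding genes are annotated in GENCODE M21 and 33 were tested. All 8 class II genes among them rose, with a median log2 fold change of 0.82, but 4 passed with control library a left out, 2 with b left out and 5 after the length trend was removed. Of the 25 that are neither class I nor class II genes, 6 rose and 9 fell, with a median of -0.12. Over all tested genes 30.1% were called higher and 33.8% lower. The 9 that fell were 5 without control library b. Tnf, a cytokine gene in the segment of H2-D1, rose from 7.4 ± 0.471 to 66.1 ± 13 FPKM (log2 fold change 2.99), and the cytokine gene Ltb rose by 1.60. Nfkbil1, which lies between Tnf and H2-D1, fell by 1.11 on the log2 scale.

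**Figure D5:**
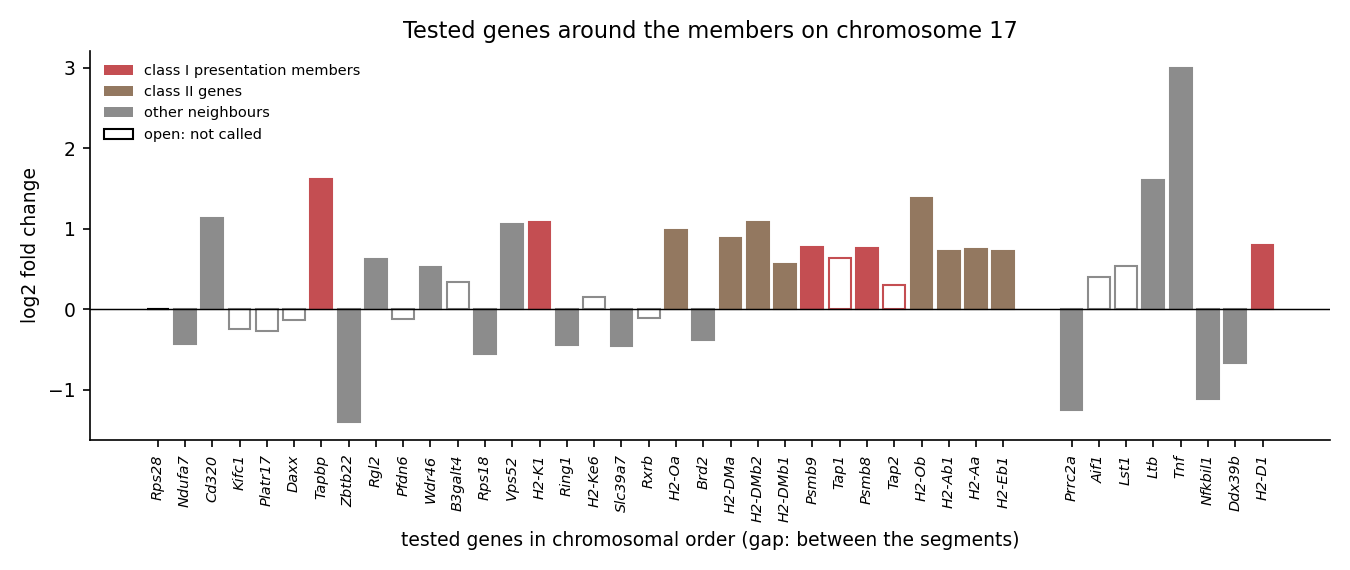
Log2 fold change of every tested protein-coding gene around the members on chromosome 17, in chromosomal order; red bars are members, brown bars class II genes, grey bars other genes, and open bars were not called. Falling genes such as Zbtb22 (-1.40) stand directly beside rising members such as Tapbp (1.62).

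Every nucleated cell makes class I molecules, and leukocytes make more than most. Over all genes, log2 fold changes were lower for longer transcripts: the trend was at 0.19 for the length of B2m, -0.30 for Erap1 and -0.40 for Nlrc5, and with it removed their changes were 1.03, 0.76 and 1.42. In bulk RNA, fewer cells of a type and less RNA per cell cannot be told apart. The leukocyte markers Ptprc, Cd53, Coro1a, Laptm5 and Cd52 all rose, 5 of 5, with a median log2 fold change of 0.92, and their summed level was 82.1 and 89.6 FPKM for control and 137 and 205 for knockout. That count was 4 with robust eBayes and with the length trend removed, where Cd52 did not pass (limma adjusted p = 0.0727 and 0.0542). All 12 T cell markers tested, of 13 listed, rose, with summed levels of 24.3 and 18.9 FPKM for control and 53.5 and 55.3 for knockout. Among them, Cd247 and Zap70 were under 1 FPKM in control library b and needed a knockout library to pass the filter. The T cell count was 8 with control library b or knockout library 2 left out, and 10 with knockout library 1 left out. B and plasma cell markers rose in 6 of 8 (summed FPKM 25.6 and 33.8 for control, 50.3 and 99.1 for knockout). Among the 6, Cr2 and Pax5 were under 1 FPKM in both control libraries. They passed the filter through the knockout libraries alone and so could not be called lower. Macrophage and monocyte markers rose in 6 of 10 (summed FPKM 585 and 544 for control, 726 and 849.5 for knockout), a count that became 3 and 1 with control library a or b left out, and 9 and 4 with knockout library 1 or 2 left out. Of the cytotoxic markers Nkg7 was the one tested, and it rose (limma adjusted p = 0.00571, and 0.0503 with control library b left out), while Prf1 was at 0.123 ± 0.0374 FPKM in control and 0.382 ± 0.0702 in knockout. Of the dendritic cell markers 1 of 2 tested rose (summed FPKM 7.33 and 4.89 for control, 8.25 and 8.71 for knockout). That marker, Flt3, was under 1 FPKM in both control libraries and likewise passed the filter through the knockout libraries alone. Of the endothelial markers 1 of 1 tested rose (summed FPKM 4.48 and 3.58 for control, 5.47 and 6.82 for knockout). Neither call was stable: that of the dendritic marker Flt3 was lost with control library a (limma adjusted p = 0.0546), control library b (0.105) or knockout library 2 (0.0755) left out, and that of the endothelial marker Pecam1 with control library b (0.222), knockout library 1 (0.0517) or knockout library 2 (0.146) left out, and with no filter (0.0615). Keratinocyte markers fell in 5 of 7, with summed levels of 5448 and 5625 FPKM for control and 3662 and 3408 for knockout.

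The ratio of H2-K1 to Ptprc, which encodes the leukocyte antigen CD45, was 13.6 and 18.6 in control and 14.9 and 10.1 in knockout, and the groups overlapped. That of B2m to Ptprc was 36.1 and 48.2 in control and 40.8 and 30.3 in knockout, again with overlap. These ratios depend on the marker: Ptprc had the largest log2 fold change of the 5 pan-leukocyte markers (1.34). Cd53, Coro1a, Laptm5 and Cd52 were at 0.70, 0.92, 0.70 and 1.04, beside 1.08 for H2-K1 and 1.21 for B2m. H2-K1 and B2m thus rose by more than each of those markers and by less than Ptprc. Ratios to those markers were not computed, so the overlap is stated for Ptprc alone. Knockout library 2 was higher than library 1 in 9 of the 10 members, beside 41.9% of all tested genes. The differences were largest in Nlrc5 (0.74 on the log2 scale), Tap1 (0.66) and Psmb9 (0.43), and they were 0.0011 in H2-K1 and -0.014 in Erap1. Pan-leukocyte markers were higher in library 2 by a median of 0.42 and B and plasma cell markers by 0.84. The median was 0.24 for macrophage and monocyte markers and 0.1 for cytotoxic and NK markers. T cell and dendritic cell markers were nearly level between the knockout libraries (0.021 and 0.0092). The part of leukocyte RNA in the changes of the members was not tested.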

How the data were processed

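Libraries came from Trizol RNA, after poly(A) selection, by a strand-specific Kapa protocol, per the labels. The submitters' processing notes name TopHat, Cufflinks and the build mm9, with versions, annotation and strand setting not given in the sources used here. A single table was deposited, and its values were read as the authors' FPKM, since Cufflinks is named, although its sheet is named for CPM. Its columns sum to 592281 to 626719 and its values are not whole, which does not settle the unit. Depth is unknown, so no counting interval is given.

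Values were fitted as log2(FPKM + 1) with limma 3.58.1 in R 4.3.3 (eBayes with a trend; 2 residual and 2.93 prior degrees of freedom), two-sided, over 12046 genes; the fit was tested on simulated data. The members and lists were chosen with earlier results of these data known. Named genes are the members, Kdm4a, and from each list the 3 smallest p, those called against the list's median and the proteasome counterparts; the rest are marked as picked with their values known, and 1 gene that the rule names is not reported here. Transcript lengths (GENCODE M21, longest transcript) covered 99.1% of genes. Alternatives were pseudocounts of 0.1 and 5, no filter or one at 5 FPKM, median-ratio scaling, quantile normalization, eBayes untrended or robust, a lowess trend over transcript length removed, transcripts under 500 nt dropped, and each library left out.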

Additional observations from a re-analysis of the deposited data

How the results depend on the processing

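Over the 10 members and the alternatives, 139 fits gave a value; none changed sign, 129 kept their side of the threshold, 3 lost a call (Nlrc5 without control library b, Erap1 without control library a or b) and 7 gained one (Tap1 in 5, Tap2 in 2). Members called higher numbered 6 to 10 when 1 library was left out. All genes called numbered 5245 to 8146 when 1 library was left out, beside 7701 with all 4 libraries, with 2437 to 3691 higher and 2808 to 4455 lower. With 1 library left out, the difference of log2 ratios was -0.12 to -0.026 for Psmb8 to Psmb5, -0.62 to -0.13 for Psmb9 to Psmb6 and 0.38 to 0.65 for Psmb10 to Psmb7. Pseudocounts of 0.1 and 5 kept the sign of each. With a filter of at least 5 FPKM Nlrc5 was not tested. Where leaving out 1 library leaves 1 sample in a group, that sample is assumed to vary like the other group. No paired analysis was possible because both control columns carry the same name and no replicate number that tells them apart. With 2 libraries a group and unknown depth, changes of low genes such as Nlrc5 are the least certain.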

Other observations

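The promoter arrangement of H2-K1, H2-D1 and B2m, TGACG followed after 20 bases by ATTGG on either strand, was held by 27 of the 27025 genes in the RefSeq window table, 4 of them named H2 or B2m, of 33 so named. The fourth was H2-M3. The letters were chosen with the promoters of H2-K1, H2-D1 and B2m in view, so those 3 were bound to be among the 4. Of the 27, 20 were tested, MHC genes included. Outside the MHC genes some were called higher, some lower and some not at all. Of all tested genes 30.1% were called higher and 33.8% lower. Nasp, a histone chaperone gene, rose by 1.63 on the log2 scale (limma adjusted p = 0.000266) and Xpnpep1, an aminopeptidase gene, by 0.78 (0.00113). Ubn1, a subunit gene of a histone chaperone complex, stood at -1.44 (0.000483) and Hnrnpf, which encodes an RNA-binding protein, at -1.06 (0.00183). These genes were picked with their values already known. Of the others called outside the MHC genes, Hspa14 was higher, and Cdnf, Glyr1, Nfe2l1 and Nrarp were lower.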
